A study of Mus musculus with 2 samples.

Results

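The Hox cluster genes of mouse dorsal skin were measured in 36 of 22180 named genes on 2 arrays, 1 from FGF18-treated and 1 from saline control mice. Members were all genes whose symbol is Hoxa, Hoxb, Hoxc or Hoxd followed only by digits and that had a transcript cluster (the array's unit of measurement, a set of probes) annotated to that symbol alone. Hoxa11 and Hoxd4 were not members because they shared their clusters with other genes. The members were 9 Hoxa, 10 Hoxb, 9 Hoxc and 8 Hoxd genes. The rule reads symbols and annotation and no measured value.

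Both samples were skin of male BALB/cAJcl mice aged 7 weeks, an albino strain, in which hair removal had started a new hair growth phase. The FGF18 group received 100 µg of FGF18, a fibroblast growth factor, in saline with 5 µg/µl heparin by the intraperitoneal route on day 6 after hair removal. These mice were exposed to γ-rays at 6 Gy, over the whole body, 24 h later, and skin was taken after a further 4 h. The control group is labelled only as saline. The labels do not give its injection day after hair removal, radiation, heparin or time of skin collection. Nor do they give the number of mice behind either sample. No allele or transgene is named for either group.

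Hox genes encode homeodomain transcription factors that give cells their position along the body. They lie in 4 clusters, and genes with low paralogue numbers at one end of a cluster act towards the head, while genes with high numbers at the other end act towards the tail and the ends of the limbs. In skin, dermal fibroblasts keep a Hox pattern of their body site into adult life, as is best known from human fibroblasts. Hoxc13 stands outside this order, since it is active in growing hair follicles over the whole body and mice without it have no normal hair.

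Because each group had a single array, no test, p-value or spread between animals can be given. Every difference below is the log2(intensity + 1) after FGF18 minus that in saline and compares these 2 arrays. In whole skin, fewer cells of a type and less RNA per cell cannot be told apart. Across the 41345 transcript clusters, the median intensity was 13.8 after FGF18 and 14.0 in saline. Over 319 symbols with at least 2 clusters at or above the median level, the difference of a cluster varied around its symbol's mean with a standard deviation of 0.24, which covers disagreement between probe sets only. Probes of different genes respond differently, so the intensity of one Hox gene is not set against that of another.

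To say which Hox transcripts were measured above background, 1394 olfactory and vomeronasal receptor genes, whose main use is in the sensory tissues of the nose, served as a yardstick. The 95th percentile of these genes was an intensity of 15.3 after FGF18 and 17.5 in saline. Above this level on both arrays were 15 Hox members, 41.7% of the 36, and 47.2% of all genes. A further 2 members, Hoxb7 and Hoxd10, were above it on the FGF18 array alone, and 19 were above it on neither. Of all 22180 genes, 1259 were above it on the FGF18 array alone, where the level was lower, and 297 on the saline array alone. The 15 members were also those at or above the median level of all genes.

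The members above background lay mainly in the middle of the Hoxa, Hoxb and Hoxc clusters. Of the central paralogues 4 to 8, 10 of 14 members (71.4%) were above background on both arrays, beside 47.2% of all genes. The counts were 2 of 7 members (28.6%) for paralogues 1 to 3 and 3 of 15 members (20%) for paralogues 9 to 13. In the Hoxa cluster on chromosome 6 the members above background were 4 neighbours, Hoxa4 to Hoxa7. In the Hoxb cluster on chromosome 11 they were the neighbours Hoxb3 to Hoxb6, with Hoxb1 and Hoxb9 apart from them. In the Hoxc cluster on chromosome 15 they were the neighbours Hoxc6, Hoxc8 and Hoxc9, and Hoxc13 at the tail end. In the Hoxd cluster on chromosome 2 Hoxd8 alone was above background on both arrays. The gene spans of Hoxb3 and Hoxb4 overlap in the gene table, as do those of Hoxa3 with Hoxa4, Hoxa5 and Hoxa6 and of Hoxd10 with Hoxd11, so probes of these pairs may read shared sequence. Clusters shared with a second gene are not in these counts. Those of Hoxd4 with Hoxd3 and of Hoxa3 with 5730446D14Rik were above background on both arrays. At the 99th percentile of receptor genes only 5 members remained, Hoxa7, Hoxb5, Hoxb6, Hoxb9 and Hoxd8, beside 26.2% of all genes. The pattern, with its high share of central members, thus depends on the level chosen.

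**Figure D1:**
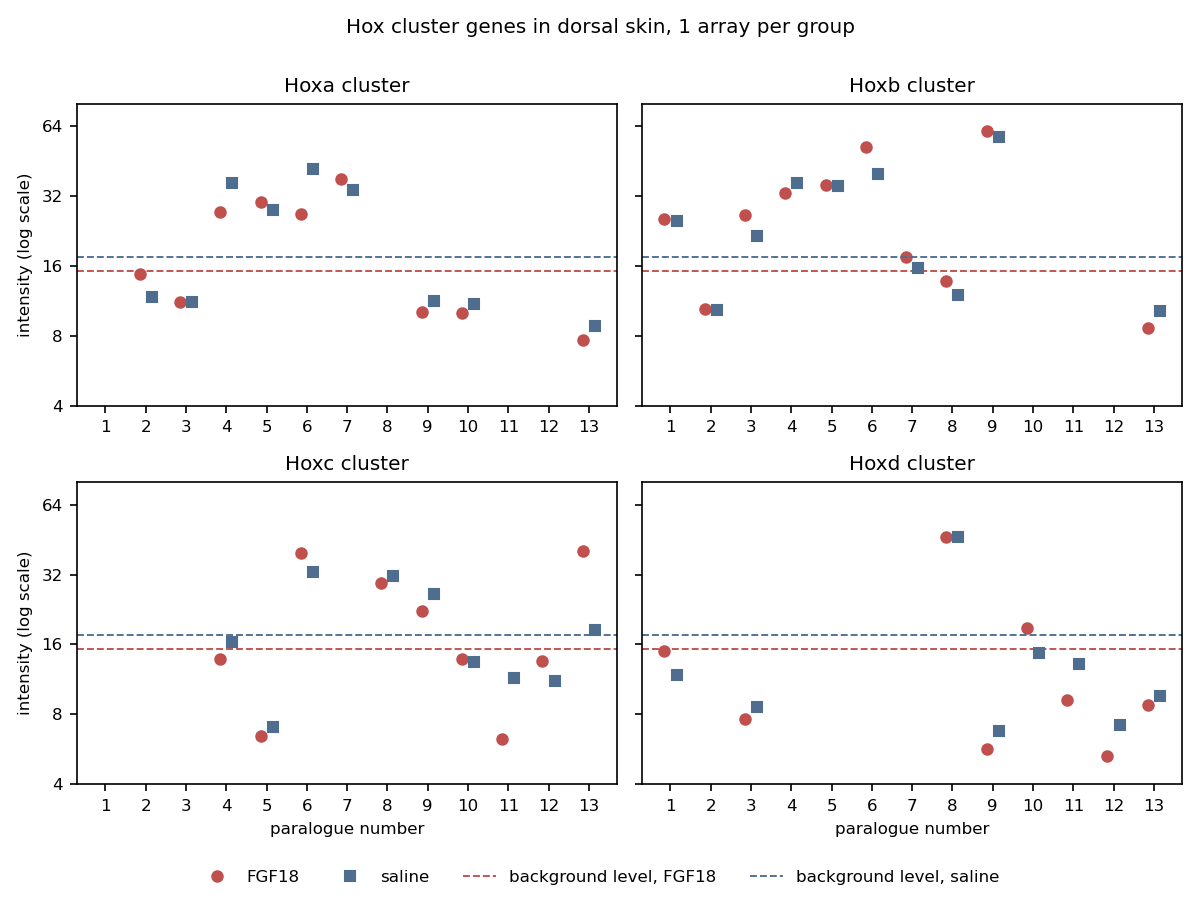
Intensity (log axis) of each Hox gene on the FGF18 array (circles) and the saline array (squares), by cluster and paralogue number, with dashed lines at the background level of each array (15.3 after FGF18 and 17.5 in saline). The 15 genes above both lines lie mainly at paralogues 4 to 9. Hoxc13 is also above both, with its saline value of 18.5 just over that line. Its neighbours Hoxc10, Hoxc11 and Hoxc12 are below both.

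The clusters also hold microRNA genes, and their mature sequences are shown because the miR-10 and miR-196 families repeat between clusters, as the Hox paralogues do. The miR-615 seed shown has no second copy among these genes. Sequences are from RefSeq (GRCm38.p6), written 5′ to 3′, with the seed, bases 2 to 8, in capitals.
miR-10a-5p (Hoxb cluster, chr11:96317186-96317208, plus strand): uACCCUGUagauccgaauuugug
miR-10b-5p (Hoxd cluster, chr2:74726074-74726096, plus strand): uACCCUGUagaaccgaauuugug
miR-196a-5p (Hoxb cluster, chr11:96265187-96265208, plus strand, and Hoxc cluster, chr15:102973365-102973386, plus strand): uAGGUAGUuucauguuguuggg
miR-196b-5p (Hoxa cluster, chr6:52230129-52230150, minus strand): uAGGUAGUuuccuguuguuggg
miR-615-3p (Hoxc cluster, chr15:103014969-103014990, plus strand): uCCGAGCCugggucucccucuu
The miR-10 pair shares the seed ACCCUGU and differs by U12A, and the miR-196 pair shares the seed AGGUAGU and differs by A12C, with positions counted from 1 at the 5′ end and the base of the a form first.

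Mir196a-1, which lies between Hoxb13 and Hoxb9, had an intensity of 67.5 after FGF18 and 62.6 in saline, a difference of 0.11, and was above background on both arrays. Mir196a-2, between Hoxc10 and Hoxc9, carries the same mature sequence and read 7.90 on both arrays, below background. Mir10b and Mir615 were also below background, with 2.41 and 8.52 after FGF18 and 2.89 and 8.73 in saline. The labelling kit works on whole transcripts, so these values are not shown to come from the mature forms. Of the 6 listed microRNA genes, 4 had a cluster of their own, with a median difference of -0.02, and Mir10a and Mir196b were not analysed here. miR-196 is known in mouse to cut the transcript of Hoxb8, which itself read 13.8 after FGF18 and 11.97 in saline, below background on both arrays. Any link between these microRNA values and the Hoxb8 values was not tested.

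Promoter sequence is shown for a pair of Hoxb genes that differ in whether they were above background. The letters TGATNNAT, which PBX and Hox proteins bind together and which are known from the self-regulating element of mouse Hoxb1, are in capitals. RefSeq (GRCm38.p6) gives 250 bases before and 50 after the start, here on the plus strand.
Hoxb1 (chr11:96365508-96365807): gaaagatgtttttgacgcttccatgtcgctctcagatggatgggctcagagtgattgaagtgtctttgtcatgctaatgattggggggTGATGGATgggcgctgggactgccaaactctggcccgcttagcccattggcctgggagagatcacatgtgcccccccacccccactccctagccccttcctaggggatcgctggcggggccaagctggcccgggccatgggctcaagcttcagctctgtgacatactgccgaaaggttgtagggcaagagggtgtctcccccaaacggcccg
Hoxb8 (chr11:96281655-96281954): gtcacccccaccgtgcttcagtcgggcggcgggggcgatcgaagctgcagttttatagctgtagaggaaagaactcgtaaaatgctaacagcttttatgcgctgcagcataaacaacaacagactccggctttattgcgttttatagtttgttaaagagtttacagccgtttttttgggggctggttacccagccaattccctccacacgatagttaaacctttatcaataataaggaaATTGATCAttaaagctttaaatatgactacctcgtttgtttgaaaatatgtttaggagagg
In Hoxb8 the letters stand on the opposite strand. Promoters were given for 20 of the 36 members, 22 promoters in all. TGATNNAT, searched on both strands, was in 4 of these 22 promoters (18.2%), those of Hoxb1, Hoxb8, Hoxa2 and 1 of the 2 of Hoxd11, and in 8.85% of all 32851 promoters. TTTATNG, letters that posterior Hox proteins bind, were in 4.55% of the Hox promoters and 10.9% of all promoters. TATAAA was in 13.6% of both, and matches to these 3 sets of letters may overlap. The median number of CG pairs per promoter was 17 for Hox members and 7 for all promoters. Of the 4 genes with TGATNNAT, Hoxb1 was above background on both arrays and the others on neither.

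Among paralogues 1 to 3, which act in the hindbrain and neck, Hoxb1 and Hoxb3 were above background. Hoxb1, which sets the identity of a hindbrain segment, read 25.5 after FGF18 and 25.1 in saline, a difference of 0.02. Hoxb3, which works with other genes of its group in the throat and neck, read 26.6 after FGF18 and 21.6 in saline, a difference of 0.29. Hoxa2, a gene of the second pharyngeal arch, read 14.8 after FGF18 and 11.8 in saline, and Hoxa3, Hoxb2, Hoxd1 and Hoxd3 were below background on both arrays as well. Over the 7 members the median difference was 0.02, beside a median of 0 over all genes.

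Paralogues 4 and 5 pattern the neck and upper chest. Hoxa4 read 27.4 after FGF18 and 36.5 in saline, a difference of -0.40, and Hoxb4 read 33.2 after FGF18 and 36.6 in saline, a difference of -0.14. Hoxc4 read 13.8 after FGF18 and 16.4 in saline, just under background. All 3 members of group 4 were lower on the FGF18 array. The cluster shared by Hoxd4 and Hoxd3, which is no member, was higher, at 31.7 after FGF18 and 27.2 in saline. Hoxa5, needed for lung and neck vertebrae in mice, read 30.2 after FGF18 and 27.8 in saline, a difference of 0.12. Hoxb5 was the only member with 2 clusters, which read 42.6 and 30.2 after FGF18 and 41.7 and 30.2 in saline, and its mean difference was 0.01. Hoxc5 read 6.42 after FGF18 and 7.04 in saline, below background.

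Paralogues 6 to 8 act in the chest and gave 6 of their 8 members above background on both arrays, beside 47.2% of all genes. Within group 6 the members differed in direction. Hoxa6 read 26.9 after FGF18 and 41.8 in saline, 1.53-fold lower after FGF18 (difference -0.62), while Hoxb6 read 52.3 after FGF18 and 39.9 in saline (0.38) and Hoxc6 read 39.7 after FGF18 and 32.8 in saline (0.27). Beside Hoxa6 on the chromosome, Hoxa5 and Hoxa7 differed by 0.12 and 0.15. Hoxa7 read 38.0 after FGF18 and 34.2 in saline, but a cluster annotated to both Mira and Hoxa7 read 39.8 after FGF18 and 45.1 in saline, the other direction. Hoxb7 read 17.6 after FGF18 and 15.6 in saline, so it crossed the background level on the FGF18 array alone. Its saline value lay under the saline level of 17.5 but over the FGF18 level of 15.3.

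Hoxc8, which sets the identity of rib-bearing vertebrae, read 29.5 after FGF18 and 31.5 in saline, a difference of -0.09. Hoxd8 read 46.4 on both arrays, a difference of exactly 0. Exact ties came from 3 of the 37 Hox clusters with 1 symbol, those of Hoxd8, Hoxa3 and 1 cluster of Hoxb5. Among all 23521 clusters with 1 symbol, 1235 were tied. The origin of the ties was not tested, and a tie is not read as a precise absence of change. Over the 14 central members the median difference was 0.01, with 7 higher, 6 lower and 1 equal.

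Paralogues 9 to 13 act in the lower chest, loin, sacrum, tail and limbs. Group 9 shapes the rib cage in mice. Of its 4 members, Hoxb9 and Hoxc9 were above background on both arrays and Hoxa9 and Hoxd9 on neither. Hoxb9 read 61.1 after FGF18 and 57.7 in saline, a difference of 0.08, and Hoxc9 read 22.4 after FGF18 and 26.4 in saline, a difference of -0.23. Group 10, which keeps ribs from forming in the loin, had Hoxa10 and Hoxc10 below background and Hoxd10 at 18.9 after FGF18 and 14.7 in saline. Group 11, which shapes the sacrum and forearm, was below background in both measured members. Hoxc11 read 6.26 after FGF18 and 11.5 in saline and Hoxd11 read 9.19 after FGF18 and 13.2 in saline, and no fold is given for values this dim.

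Genes known for the far ends of the body were not above background on either array. Hoxa13, needed for digits and genitalia, read 7.66 after FGF18 and 8.82 in saline. Hoxd13, of the same structures, read 8.75 after FGF18 and 9.63 in saline, and Hoxb13, of the tail and prostate, read 8.67 after FGF18 and 10.3 in saline. In this group of 4, Hoxc13 alone was above background. Not above background is no proof of absence, since a probe set that responds weakly would look the same.

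Hoxc13 had the largest difference among the 36 members. It read 40.5 after FGF18 and 18.5 in saline, 2.13-fold higher after FGF18 (difference 1.09), with the saline value just over that array's background of 17.5. Among the 15 members that reached the median level of all genes it was the only one at least 2-fold higher, where 0.379% of all 11090 genes at that level were. With a pseudocount of 16 the difference was 0.71, or 1.64-fold, under the 2-fold threshold. No member was at least 2-fold lower, where 1.65% of all genes at that level were. At 1.5-fold, Hoxc13 was higher (3.64% of all genes) and Hoxa6 lower (4.63% of all genes). With a pseudocount of 16 Hoxa6 was 1.35-fold lower, under that threshold.

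**Figure D2:**
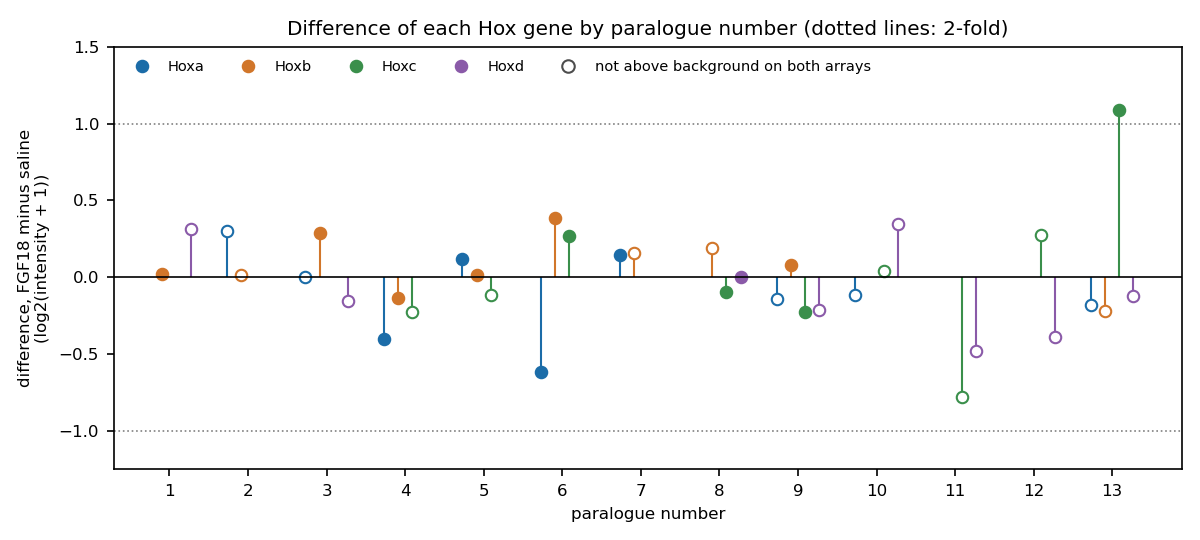
Difference between the FGF18 and saline arrays (log2(intensity + 1)) for each Hox gene by paralogue number, coloured by cluster, with open symbols for genes not above background on both arrays. Hoxc13 at 1.09 is the only gene past the dotted 2-fold lines, and Hoxa6 at -0.62 is the lowest of the filled symbols.

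Most other posterior genes were too dim to set beside Hoxc13. Its neighbour Hoxc12, also known from hair follicles, read 13.6 after FGF18 and 11.1 in saline, below background on both arrays. Of the 14 posterior members other than Hoxc13, Hoxb9 and Hoxc9 were above background on both arrays, with the differences of 0.08 and -0.23 given above. Dim genes as a whole lay slightly lower on the FGF18 array. All 10163 genes above background on neither array had a median difference of -0.06, and the 19 Hox members among them one of -0.12. The 10461 genes above background on both arrays had a median of 0.07, and the 15 Hox members among them one of 0.02.

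Most markers of the growing hair were also higher on the FGF18 array. Of 12 hair shaft keratins 11 were measured and 9 were above background on both arrays, with a summed intensity of 1050 after FGF18 and 688 in saline and a median difference of 0.61. Higher values were seen in 10 of 11, with 2 past 2-fold, and Krt81 was lower at -0.47. Of 10 inner root sheath genes 9 were above background, with sums of 6278 after FGF18 and 3186 in saline and a median of 0.96. Higher values were seen in 9 of 10, with 4 past 2-fold, while Gata3 had a difference of -0.06. Of 6 hair matrix genes 5 were measured and 4 were above background, with sums of 395 after FGF18 and 251 in saline and a median of 0.67. All 5 were higher, 0 of them 2-fold. Among the matrix genes, Lef1, the effector of Wnt signals, differed by 0.79 and Foxn1, a hair regulator gene that Hoxc13 is known to act on in mice, by 0.28. The part of hair cell content in the Hoxc13 difference was not tested.

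The 4 clusters had small median differences of both signs. The Hoxa members had a median of -0.12 (3 higher, 5 lower and 1 equal), and the Hoxb members one of 0.05 (8 higher and 2 lower). The Hoxc members had a median of -0.09 (4 higher and 5 lower), and the Hoxd members one of -0.14 (2 higher, 5 lower and 1 equal). The Hoxc median was 0.09 over the 4 members above background on both arrays, so its sign depends on the dim members. Over all 36 members 17 were higher, 17 lower and 2 equal, with a median of 0, and the median over all 22180 genes was also 0.

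**Figure D3:**
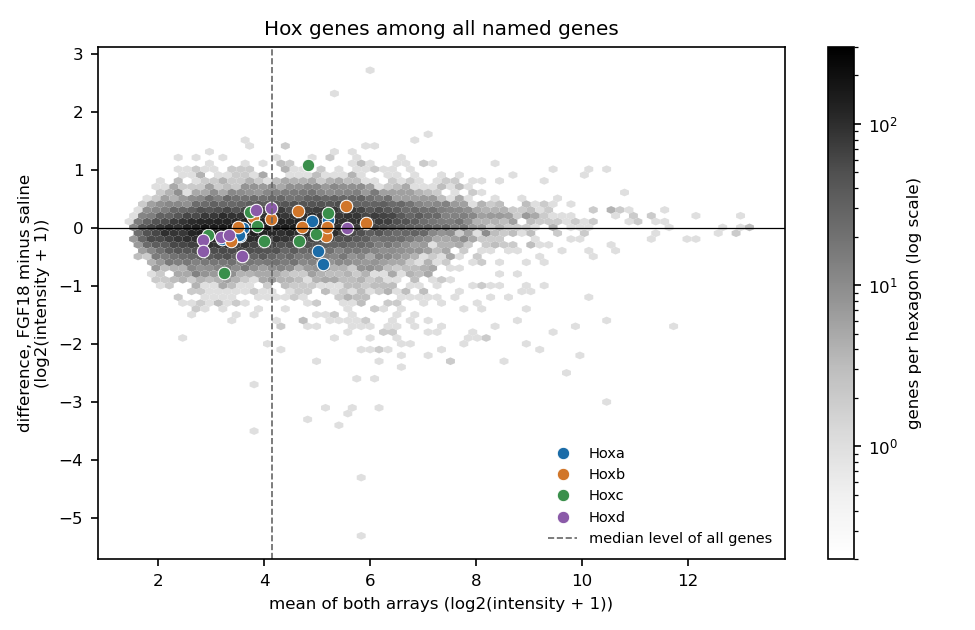
Difference (FGF18 minus saline, log2(intensity + 1)) against the mean of both arrays for all 22180 named genes (grey hexagons, darker for more genes) and for the 36 Hox members (coloured by cluster). Hoxc13 lies at the upper edge of the grey cloud at 1.09, the other Hox genes lie within 2-fold, and 15 Hox genes are right of the dashed median level.

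Whether both skin pieces came from a like body position was approached by asking which Hox genes were above background on each array. Of the 36 members, 34 (94.4%) were on the same side of the background level on both arrays, against 93% of all 22180 genes. The exceptions were Hoxb7 and Hoxd10, whose saline values of 15.6 and 14.7 lay under that array's level of 17.5. Differences were under 1.5-fold for 33 members (91.7%), against 93.2% of all genes, and the median size of a difference was 0.19 for both. Values on both arrays correlated with Pearson r = 0.94 and Spearman rho = 0.93 across the 36 genes, and with 0.97 for both measures across all genes. The points share their probes between arrays, so these coefficients describe mostly how probes differ. The labels call both pieces dorsal skin and give no finer site, and how far apart on the back sites must be before these probes differ was not tested.

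Dermal fibroblasts, the skin cells best known for a positional Hox pattern, were represented on both arrays. Of 8 listed fibroblast markers 7 were measured and all 7 were above background, with a summed intensity of 1018 after FGF18 and 1123 in saline and a median difference of -0.33. The lowest were Lum and Dpt, genes of matrix proteins, at -0.95 and -0.69, and the highest were Dcn, of the same kind, at 0.42 and Pdgfra, a growth factor receptor gene, at 0.12. Dermal papilla markers, from the mesenchyme at the follicle base, had a median of 0.27 over 8 genes, with sums of 509 after FGF18 and 365 in saline. Muscle under the skin had a median of -0.22 over 8 markers, with sums of 4656 after FGF18 and 5155 in saline. The part of these shifts in the Hox values was not tested.

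The other marker lists describe the rest of the tissue. Differentiated epidermis markers were lower in all 8 genes, with sums of 3747 after FGF18 and 14526 in saline and a median of -2.01. Basal epidermis markers had sums of 1290 after FGF18 and 1326 in saline and a median of 0.37 over 5 genes. Of these, 4 were higher and Krt14 was lower at -0.81. The medians were 0.07 over 6 adipocyte genes, 0.21 over 5 endothelial genes and 0.51 over 5 macrophage genes. Their sums were 739, 82.5 and 174 after FGF18 and 556, 91.3 and 129 in saline. Of the endothelial genes, Pecam1, Kdr and Cdh5 were above background on both arrays, with differences of 0.21, -0.43 and -0.66. Vwf and Tek, at 0.21 and 0.42, were above it on neither, so the sign of the endothelial median depends on dim genes. The blood cell genes Ptprc and Cd3e read 17.3 and 9.13 after FGF18 and 14.8 and 14.1 in saline, and were not above background on both arrays. The labelled tissue thus had its epidermal, follicle and dermal markers on both arrays.

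Genes that mark trunk, limb and head position outside the Hox clusters gave no large difference. In the trunk list Tbx15, a T-box gene of dorsal trunk dermis in mice, read 41.5 after FGF18 and 35.2 in saline, a difference of 0.23. Tbx3, which also acts in skin and limb, read 25.5 after FGF18 and 20.5 in saline, a difference of 0.30. Tbx18, En1, Emx2 and Tbx2 were below background on both arrays, and the median difference of the 6 genes was 0.22.

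Of the limb genes, Tbx5 of the forelimb read 12.6 after FGF18 and 12.5 in saline, and Tbx4 of the hindlimb 12.6 after FGF18 and 16.6 in saline, both below background. Pitx1, another hindlimb gene, read 15.6 after FGF18 and 18.9 in saline, just over background. Lmx1b, which specifies the dorsal side of the limb, read 60.1 after FGF18 and 66.0 in saline, a difference of -0.13. Shox2 differed by -0.18, and Hand2 read 16.1 after FGF18 and 15.1 in saline. The median of the 6 limb genes was -0.16. Of 9 head genes 7 were measured with a median of -0.07, among them Alx4 at -0.07, Barx1 at -0.16 and Dlx5 at -0.31, the 3 above background on both arrays. These head genes are also active in hair follicles, teeth or bone, so they do not mark the head alone.

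The partners of Hox proteins on DNA, the Pbx, Meis and Pknox homeodomain proteins, did not differ in one direction. Higher values were found for 4 of the 8 measured genes and lower values for 4, the median was -0.05, and 4 were above background on both arrays. Meis1 read 35.2 after FGF18 and 24.3 in saline (difference 0.52), and Pknox1 differed by 0.13. Pbx3 and Pknox2 differed by -0.29 and -0.33. Pbx2 read 21.1 after FGF18 and 10.7 in saline, below background in saline, so no fold is given.

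Chromatin regulators of the clusters differed by small amounts. Polycomb proteins keep Hox genes silent where they are not used, and 10 of 13 measured genes were higher with a median of 0.15, none of them 2-fold. Among all genes above background on both arrays, 6089 of 10461 were higher. Suz12, a subunit of the complex that marks silent chromatin, read 162 after FGF18 and 117 in saline (0.46), and Rnf2 differed by 0.31. Cbx2 and Cbx8, readers of that mark, differed by -0.13 and -0.01. Trithorax proteins keep Hox genes active. Kmt2a, Kmt2d and Ash2l differed by 0.27, 0.38 and 0.28 and Wdr5 and Men1 by -0.11 and -0.03, so that 3 of 5 were higher with a median of 0.27. These medians stand beside one of 0.07 over all genes above background on both arrays, where 11 of the 13 Polycomb genes and all 5 Trithorax genes were. The standard deviation of 0.24 between clusters of a symbol applies to the difference of 1 cluster and not to a median over genes.

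**Figure D4:**
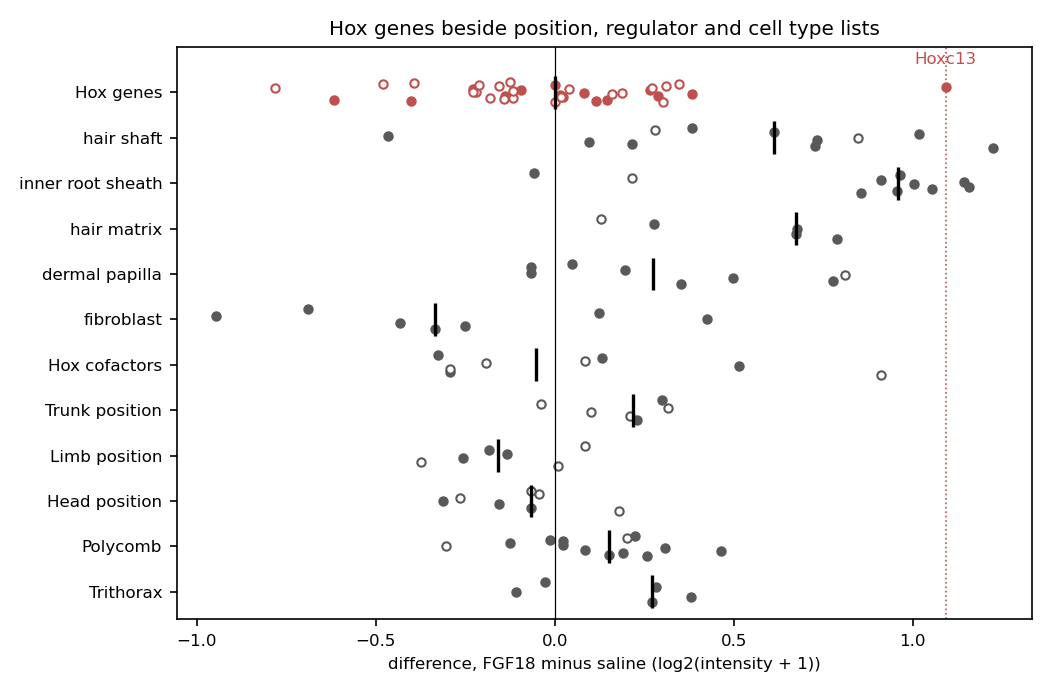
Difference (FGF18 minus saline, log2(intensity + 1)) of each measured gene in the Hox group (red) and in the position, regulator and cell type lists (grey), with black bars at list medians and open symbols for genes not above background on both arrays. Hoxc13, at the dotted line, lies among the inner root sheath and hair shaft genes (medians 0.96 and 0.61), while the Hox median is 0.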

How the data were processed

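Skin RNA was hybridised to 2 Affymetrix Mouse Gene 2.0 ST arrays, and groups were taken from the sample labels. Affymetrix Expression Console and RMA were used by the authors, per the submitters' processing notes, with no version stated. Values were deposited as intensities, judged linear from their range (1.44 to 11532 after FGF18 and 1.39 to 11488 in saline). Precision is limited by the single array of each group. Of 41345 clusters, the 23521 with 1 gene symbol were used. The log2(intensity + 1) of a symbol's clusters was averaged. All 36 members matched the gene table (GRCm38.p6) by Entrez identifier.

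Counts past 2-fold or 1.5-fold used the 11090 genes whose mean reached the median level (4.15). Named genes are the members above background on either array, the 2 highest and 2 lowest of each position or regulator list above background, and all of lists of up to 6 genes. Other members named with values, Pbx2, and the fibroblast, hair, basal epidermis, endothelial and blood cell genes were chosen after their values were seen. Members, lists and background level were chosen with earlier results of these data known. Alternatives were pseudocounts of 16 or none, the brightest cluster, clusters with several symbols, centring, a loess trend (span 0.3), means, and other filters and background levels. The gene step was tested on simulated data. Python 3.11.15 with pandas 2.3.3, numpy 2.4.6, scipy 1.17.1, statsmodels 0.14.6 and matplotlib 3.10.9 was used. Some items are not reported here.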

Additional observations from a re-analysis of the deposited data

Results flagged for a closer look

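Of 7 clusters annotated to a Hox gene and a second gene, which entered no member's value or count above, 2 were above background on both arrays and higher on the FGF18 array. The cluster of Hoxd4 and Hoxd3 read 31.7 after FGF18 and 27.2 in saline, whereas the cluster of Hoxd3 alone read 7.61 after FGF18 and 8.59 in saline, below background. The cluster of Hoxa3 and 5730446D14Rik read 24.0 after FGF18 and 19.6 in saline, whereas the cluster of Hoxa3 alone read 11.2 on both arrays. Which of the genes named gave the signal was not tested.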

How the results depend on the processing

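With 1 array per group no result has a replicate check. No paired analysis was possible because each group had 1 array. The count of members at least 2-fold higher was 0 with a pseudocount of 16 and 0 with a filter at the 75th percentile, which left 3 members, and was 1 under the other 7 alternatives. The count at least 2-fold lower was 1 at the 1.5-fold threshold and 0 under the others. The 15 members above background became 5 at the 99th percentile of receptor genes (Hoxa7, Hoxb5, Hoxb6, Hoxb9 and Hoxd8), where 26.2% of all genes passed, and 3 at the 75th percentile of all genes (Hoxb6, Hoxb9 and Hoxd8), where 22.5% passed. Across alternatives the median over all members ranged from -0.05 to 0.02, and the sign of the Hoxc, central and posterior medians changed under some. The difference of Hoxc13 ranged from 0.71 to 1.13 and that of Hoxa6 from -0.67 to -0.43. Values near background limit what dim members can show.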

Other observations

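Genes beside the clusters, which are not Hox genes, gave 12 of 14 measured, with 9 above background on both arrays and a median difference of 0.10. Mtx2, a mitochondrial gene next to the Hoxd cluster, and Snx10, a sorting nexin gene near the Hoxa cluster, were highest among those 9 at 0.38 and 0.34, and Calcoco1 and Hibadh lowest among them at -0.18 and -0.17. Evx2, a homeobox gene beside Hoxd13, read 19.1 after FGF18 and 12.03 in saline and crossed background on the FGF18 array alone.

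Of 6 listed noncoding RNAs of the clusters 3 were measured, with a median difference of 0.06. Hoxd3os1, transcribed opposite Hoxd3, read 21.9 after FGF18 and 18.2 in saline, above background on both arrays, a difference of 0.26. Hotair, from the Hoxc cluster, read 11.8 after FGF18 and 12.5 in saline, and Hoxaas3, from the Hoxa cluster, 13.2 after FGF18 and 12.6 in saline, both below background.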
